A study of Mus musculus with 6 samples.

Results

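The vacuolar H+-ATPase (V-ATPase) is the proton pump that acidifies lysosomes, endosomes and the Golgi, and the 9 genes described here encode subunits or subunit isoforms of it. They are Atp6v0a1, Atp6v0a2, Tcirg1, Atp6v0d1 and Atp6v0d2 of the membrane sector V0, and Atp6v1a, Atp6v1b2, Atp6v1c1 and Atp6v1h of the cytosolic sector V1. They were chosen by symbol among 19937 genes measured, and with the difference between UNC0638 and DMSO in these arrays already known. Each gene is represented by the probe set, among those annotated to it alone, that had the highest mean over the 6 arrays. All 9 were measured. Their differences between the groups are therefore given as a description, with no test.

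The cells were mouse haematopoietic stem and progenitor cells transformed with HoxA9 and Meis1, a culture model of acute myeloid leukaemia. The first group was treated for 5 days with UNC0638 (3 arrays), a small molecule inhibitor of the histone methyltransferases G9a and GLP, and the other for 5 days with the solvent DMSO (3 arrays). Both groups carried HoxA9 and Meis1 and were cultured with FBS, IL3, IL6 and SCF. The labels number the samples 1 to 3 and do not say whether they were separate cultures, so the spread between them may be technical, and the number of arrays limits the precision.

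The V1 sector hydrolyses ATP, and the energy turns a rotor that carries protons through V0 into the lumen. Subunit a holds the proton half-channels and its isoforms direct the pump to different membranes, while subunit d couples the rotor of V1 to that of V0. The d1 isoform is found in most tissues. The d2 isoform is known in mice from osteoclasts, macrophages and the kidney, and mice that lack it form fewer fused osteoclasts and have denser bone.

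Arrays of both groups had similar distributions, with median intensities of 53.4, 54.9 and 52.7 on UNC0638 arrays 1, 2 and 3 and 50.4, 51.6 and 52.5 on DMSO arrays 1, 2 and 3. Every UNC0638 median thus lay slightly above every DMSO median. The upper quartiles overlapped, at 187.6 to 192.8 on UNC0638 arrays and 185.5 to 196.8 on DMSO arrays. Of all genes tested with limma, 134 passed an adjusted p of 0.05 (0.672%), 74 higher (0.371%) and 60 lower (0.301%) after UNC0638. Markers of the labelled cells were present, since all 9 of the progenitor and transformation markers (Hoxa9, Meis1, Kit, Cd34, Flt3, Mpo, Elane, Ptprc and Spi1) lay above the array median on every array. Their summed intensity was 19006 to 20246 on UNC0638 arrays and 18183 to 19156 on DMSO arrays.

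Promoter windows in RefSeq (build GRCm38.p6) were matched to 4 of the 9 genes, Atp6v0a1, Tcirg1, Atp6v0d1 and Atp6v1a, in 6 windows of 250 bases before to 50 bases after a transcription start. Promoters of Atp6v0a2, Atp6v0d2, Atp6v1b2, Atp6v1c1 and Atp6v1h were not analysed here. Many lysosomal genes carry the E-box CACGTG near their start, which the MiT transcription factors (Tfeb, Tfe3, Mitf and Tfec) are known to bind. The palindrome CACGTG, which reads the same on both strands, was present in the windows of Atp6v0d1 and Atp6v1a and in 7.15% of 32851 windows of 300 bases. Neither CATGTG (14.2% of windows) nor TGAGTCA, the AP-1 motif (5.2%), was in any of the 6 windows on either strand. CACGTG and CATGTG are E-box forms that differ only by a C or a T, and each motif was counted separately. The 2 windows with an E-box are shown because they belong to genes of both sectors, from 250 bases before the start to 20 after it, with CACGTG in capitals. In Atp6v0d1, at chr8:105566045-105566314 on the minus strand, the site begins 3 bases before the start and runs across it. In Atp6v1a, at chr16:44139240-44139509 on the minus strand, the site begins 131 bases before the start. The RefSeq span of Atp6v1a reaches further, to 44139702, so this site lies inside the span. The Atp6v0a1 window also lies inside its gene span, which begins at 101009422. In these genes the start used is therefore not the outer end of the span.
Atp6v0d1: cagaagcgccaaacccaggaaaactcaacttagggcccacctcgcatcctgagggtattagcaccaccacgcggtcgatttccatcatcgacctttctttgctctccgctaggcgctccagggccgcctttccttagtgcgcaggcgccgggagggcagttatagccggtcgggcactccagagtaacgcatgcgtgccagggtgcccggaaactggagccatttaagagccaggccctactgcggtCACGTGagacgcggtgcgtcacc
Atp6v1a: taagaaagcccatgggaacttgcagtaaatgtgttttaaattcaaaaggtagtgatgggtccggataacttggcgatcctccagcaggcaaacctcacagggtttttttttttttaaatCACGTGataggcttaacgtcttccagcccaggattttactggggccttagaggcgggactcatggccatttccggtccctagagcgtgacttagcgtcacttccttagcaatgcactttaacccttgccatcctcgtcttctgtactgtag
A match describes the letters of a window and is not a measured binding site.

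Among the 9 genes, Atp6v0d2 was higher after UNC0638 by 3.27-fold, Atp6v1b2 by 1.39-fold, and the other 7 lay between 0.902-fold and 1.17-fold of DMSO. On the log2(intensity + 16) scale 6 of the 9 differences were above 0 and 3 below, with a median of 0.18, against a median of 0.012 over all 19937 genes. In 5 of the 9 all UNC0638 arrays lay above all DMSO arrays, a pattern seen in 9.59% of all genes, and in 0 all lay below, seen in 7.40% of all genes. The count of 5 was 6 under quantile normalization and 4 with arrays centred on their medians. In the limma fit over all genes 0 of the 9 passed, beside 0.672% of all genes, and 4 (Atp6v0d2, Atp6v1b2, Atp6v0a1 and Atp6v1a) lay at an unadjusted p under 0.05, beside 12.7%. Since these genes were chosen with this contrast in view, nothing is read from these shares. In bulk RNA a higher level per cell and a larger share of cells that express a gene cannot be told apart.

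**Figure D1:**
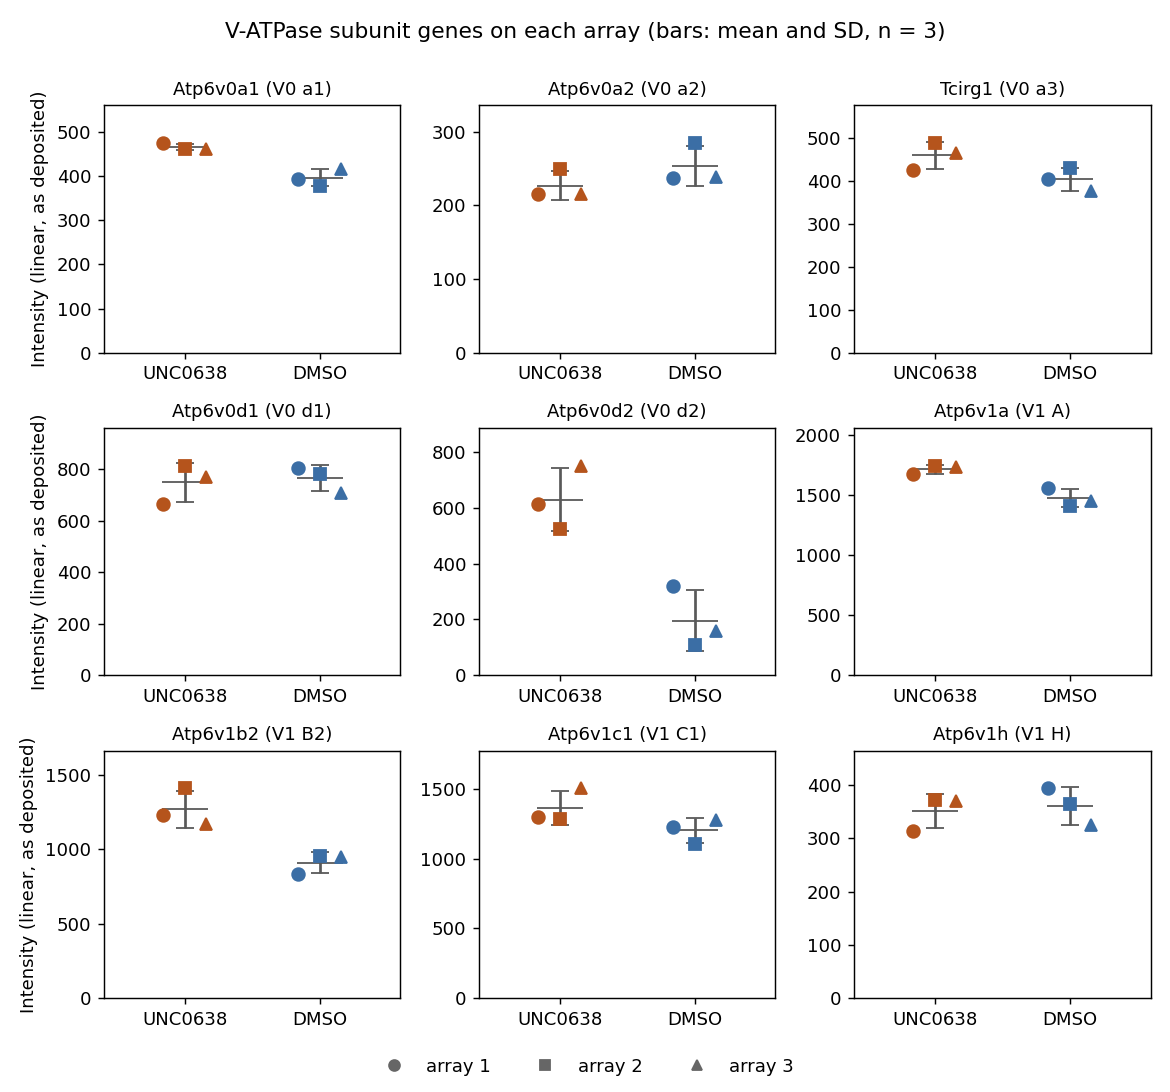
Intensity (linear, as deposited) of the 9 V-ATPase genes on each of 3 UNC0638 and 3 DMSO arrays, each panel from 0, with the mean and SD of each group. Atp6v0d2 is at 525 to 749 on UNC0638 arrays and 110 to 319 on DMSO arrays. Its lowest UNC0638 array is 1.65 times its highest DMSO array, the largest such ratio among the 9.

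Atp6v0d2 encodes the d2 isoform of the subunit that joins the rotors (probe set 10511779, gene on chromosome 4, 19876838 to 19922566 in GRCm38.p6). Its intensity was 611, 525 and 749 on UNC0638 arrays 1, 2 and 3, against 319, 110 and 160 on DMSO arrays 1, 2 and 3. The groups did not overlap, and the lowest UNC0638 array was 1.65 times the highest DMSO array. Means were 628 ± 113 in UNC0638 and 196 ± 109 in DMSO (SD, n = 3 each), a log2 difference of 1.71 (SE 0.31). Only 2 of the 19937 genes had a larger difference upward, the interleukin-22 binding protein gene Il22ra2 (2.31) and the lectin receptor gene Clec4b2 (2.26).

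The DMSO arrays differed widely in Atp6v0d2. Array 1 was 2.90 times array 2, and the coefficient of variation was 18.03% in UNC0638 and 55.6% in DMSO. The log2 SD was 0.25 in UNC0638 and 0.72 in DMSO, and only 24 genes had a larger one among the DMSO arrays. Without DMSO array 1 the log2 difference was 2.10 (SE 0.18) and without DMSO array 2 it was 1.40 (SE 0.26). In the fit without DMSO array 1 Atp6v0d2 lay past the threshold, whereas in the main fit with all arrays it did not. Leaving out that array removes the DMSO value nearest to UNC0638, and the gene was chosen with this contrast known. Nothing is therefore read from that pass. DMSO array 1 was also the highest of its group for Atp6v1a, Atp6v0d1 and Atp6v1h, and not for the other 5 genes. DMSO array 2, the lowest of its group for Atp6v0d2, was the lowest DMSO array for Atp6v0a1, Atp6v1a and Atp6v1c1 as well.

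Atp6v0d1 encodes the d1 isoform, the widely expressed counterpart of d2 (probe set 10581289, chromosome 8, 105524461 to 105566064). Its intensity was 667, 813 and 770 on UNC0638 arrays 1, 2 and 3, against 806, 782 and 710 on DMSO arrays 1, 2 and 3. The groups overlapped throughout. Means were 749.9 ± 75.3 in UNC0638 and 766 ± 50.5 in DMSO, a log2 difference of -0.033 (SE 0.098). That sign turned without UNC0638 array 1 (0.048), without DMSO array 1 (0.0043) and with quantile normalization (0.0074). The differences of the isoforms d2 and d1 were thus 1.71 and -0.033, and since their probe sets bind with unknown and unequal strength, no level of one isoform is set against the other.

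The a isoforms place the pump in the cell, with a3, the product of Tcirg1, known from lysosomes and from the ruffled border of osteoclasts, and a2 from endosomes and the Golgi. Atp6v0a1, the a1 isoform (probe set 10381187, chromosome 11), had intensities of 475, 462 and 461 on UNC0638 arrays 1, 2 and 3, against 394, 378 and 416 on DMSO arrays 1, 2 and 3. UNC0638 arrays all lay above DMSO arrays, and the log2 difference was 0.23 (SE 0.076). Tcirg1 (probe set 10464529, chromosome 19) had 424, 488 and 466 on UNC0638 arrays 1, 2 and 3, against 404, 430 and 377 on DMSO arrays 1, 2 and 3. Here UNC0638 array 1 lay below DMSO array 2, so the groups overlapped, and the log2 difference was 0.18 (SE 0.088).

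Atp6v0a2 was the 1 gene among the a isoforms with a lower mean after UNC0638 (probe set 10525833, chromosome 5). Its intensity was 215.3, 249.7 and 215.4 on UNC0638 arrays 1, 2 and 3, against 237, 285 and 238 on DMSO arrays 1, 2 and 3, with a log2 difference of -0.15 (SE 0.10), which was -0.067 without DMSO array 2. The groups overlapped through the second array of UNC0638. It was also the 1 gene of the 9 with more than 1 probe set. The probe set not used, 10525804, had a mean of 213.5 over the 6 arrays, against 240.1 for the one used, and a log2 difference of -0.078.

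In the V1 sector the nucleotide-binding subunits A and B form the ring that hydrolyses ATP, with the catalytic sites on A. Atp6v1b2, the B2 isoform found in most cells (probe set 10572146, chromosome 8), had intensities of 1231, 1410.2 and 1172 on UNC0638 arrays 1, 2 and 3, against 833, 953 and 949 on DMSO arrays 1, 2 and 3. Again the groups were separate, with the lowest UNC0638 array 1.23 times the highest DMSO array. Means were 1271 ± 124 in UNC0638 and 912 ± 68.5 in DMSO, a log2 difference of 0.47 (SE 0.099), and 1.3% of all genes had a larger difference upward. Leaving out 1 array at a time moved it between 0.39 and 0.53.

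Atp6v1a, the catalytic subunit A (probe set 10439566, chromosome 16), had 1671, 1742 and 1730 on UNC0638 arrays 1, 2 and 3, against 1555, 1412 and 1453 on DMSO arrays 1, 2 and 3. Every UNC0638 array exceeded every DMSO array, and the log2 difference was 0.22 (SE 0.077). Only 4 of the 9 genes had a promoter window. Of the 2 among them with an E-box, Atp6v1a thus had a difference of 0.22 and Atp6v0d1 one of -0.033. Outside the 9, CACGTG was also in the windows of the subunit genes Atp6v0b (log2 difference 0.12) and Atp6v0e (0.086).

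Subunits C and H sit between the ring and the membrane sector and are known for their part in the assembly and braking of the pump, roles worked out largely in yeast. Atp6v1c1, the C1 isoform (probe set 10423805, chromosome 15), had 1299, 1282 and 1502 on UNC0638 arrays 1, 2 and 3, against 1223, 1105 and 1276 on DMSO arrays 1, 2 and 3. The groups came within 1.005-fold of each other without overlapping, and the log2 difference was 0.18 (SE 0.096), or 0.10 without UNC0638 array 3. Atp6v1h, subunit H (probe set 10344637, chromosome 1), had 315, 371 and 369.7 on UNC0638 arrays 1, 2 and 3, against 394, 365 and 324 on DMSO arrays 1, 2 and 3. These groups overlapped, and the log2 difference of -0.036 (SE 0.10) turned to 0.040 without UNC0638 array 1, to 0.027 without DMSO array 1 and to 0.0051 with quantile normalization.

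**Figure D2:**
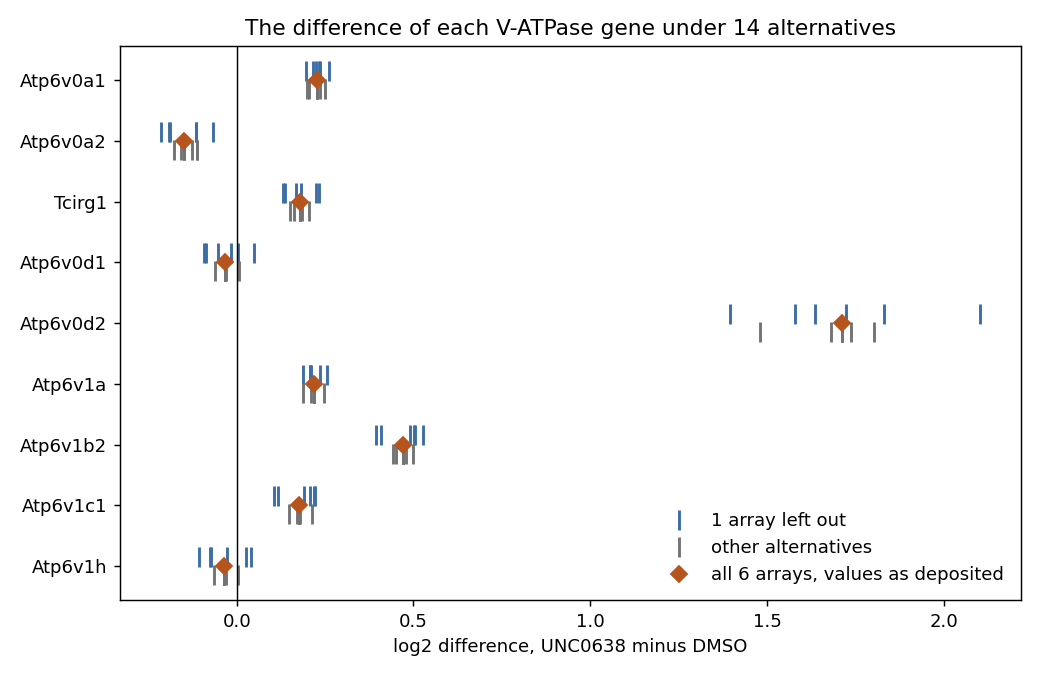
Log2 difference (UNC0638 minus DMSO) of the 9 genes with all arrays and values as deposited (diamonds), with 1 array left out at a time (upper ticks) and under 8 other settings (lower ticks). Atp6v0d2 runs from 1.40 to 2.10 and Atp6v1b2 from 0.39 to 0.53, while Atp6v0d1 and Atp6v1h lie on both sides of 0.

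Of 16 further subunit and accessory genes of the pump, 15 were measured and 0 passed in limma in either direction, beside 0.371% of all genes passing upward and 0.301% downward. Their median log2 difference was 0.036, against 0.012 over all genes, and 9 were above 0 and 6 below. In 1 (Atp6v0e2) all UNC0638 arrays lay above all DMSO arrays, beside 9.59% of all genes. In 2 (Atp6v1e1 and Atp6v1e2) all lay below, beside 7.40%. At an unadjusted p under 0.05 there was 1 higher and 1 lower (beside 6.47% and 6.21% of all genes). The higher one was Atp6ap2, the accessory subunit also known as the prorenin receptor, with 719.8 ± 64.1 in UNC0638 and 579 ± 99.1 in DMSO (log2 difference 0.32, limma adjusted p = 0.363), or 0.18 without DMSO array 2. The lower one was Atp6v1e2, an E isoform known from testis, with 42.6 ± 5.13 in UNC0638 and 53.2 ± 0.79 in DMSO (log2 difference -0.24, limma adjusted p = 0.282), or -0.14 with a pseudocount of 64. Its levels lay near the array medians, where the pseudocount of 16 shrinks differences.

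The remaining 13 stayed between -0.15 and 0.13. In V1 these were the stalk subunits Atp6v1d (0.081), Atp6v1e1 (-0.15), Atp6v1f (-0.011) and Atp6v1g1 (-0.065). In V0 they were Atp6v0b (0.12), a proteolipid of the rotor ring, and Atp6v0e (0.086) with its isoform Atp6v0e2 (0.12). The accessory subunit Atp6ap1 was at 0.13. The isoforms known from specialised tissues were Atp6v1b1 (-0.096), Atp6v1c2 (-0.096), Atp6v1g2 (0.036), Atp6v1g3 (0.068) and Atp6v0a4 (0.027). Limma adjusted p for these 13 ran from 0.519 for Atp6v1e1 to 0.986 for Atp6v1f. Atp6v1b1, Atp6v1g3 and Atp6v0a4, which with d2 are known from acid-secreting kidney cells, lay below the array medians, as did Atp6v1c2, at 11.9 to 49.02 over the arrays.

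**Figure D3:**
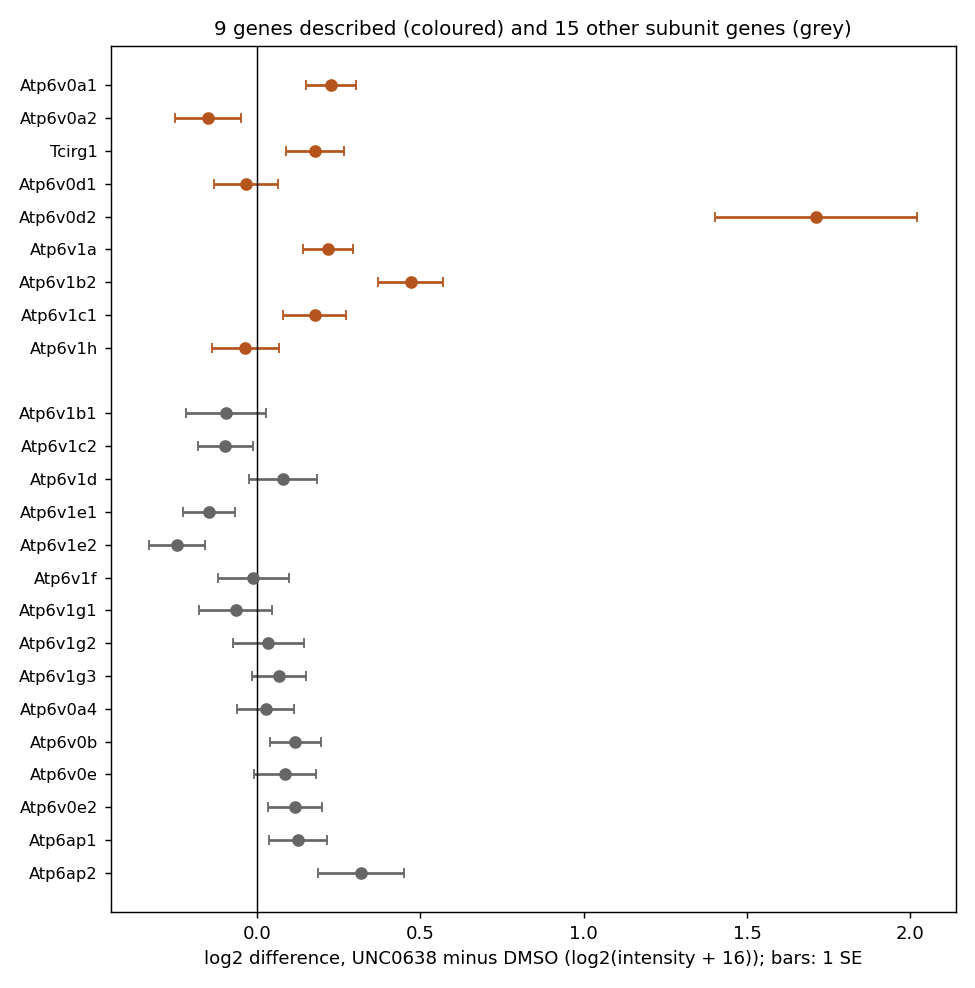
Log2 difference (UNC0638 minus DMSO, on log2(intensity + 16)) with its SE for the 9 genes described (coloured) and the 15 other subunit genes measured (grey). Atp6v0d2 at 1.71 stands apart on the axis, followed by Atp6v1b2 at 0.47 and Atp6ap2 at 0.32.

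Of 12 genes for assembly and regulation of the pump, 0 passed in limma, beside 0.672% of all genes. At an unadjusted p under 0.05, 2 were higher and 1 lower, beside 6.47% and 6.21% of all genes, and the median was 0.075. The largest differences were those of Ncoa7, whose product binds the V1 sector, at 233 ± 49.3 in UNC0638 and 155 ± 36.4 in DMSO (0.55, limma adjusted p = 0.27, and 0.36 without DMSO array 1), and of Tmem199, an assembly factor in the endoplasmic reticulum, at 120.3 ± 23.2 in UNC0638 and 166 ± 17.4 in DMSO (-0.43, limma adjusted p = 0.206). Of 10 measured ion channels and exchangers of endosomes and lysosomes, again 0 passed, beside 0.672% of all genes. Here too 2 were higher and 1 lower at an unadjusted p under 0.05, beside 6.47% and 6.21%, and the median was 0.076. Slc9a9, an endosomal sodium-proton exchanger that lets protons out, was at 258, 218 and 242 on UNC0638 arrays 1, 2 and 3, against 174, 119 and 123 on DMSO arrays 1, 2 and 3. The groups did not overlap, and DMSO array 1 was the highest of its group, as for Atp6v0d2. Its log2 difference was 0.74 (SE 0.14, limma adjusted p = 0.0616), and it lay past the threshold without DMSO array 1 (0.90, limma adjusted p = 0.0211), with the dimmest 40% of genes left out (0.0288) and with a trended robust prior (0.0399). Clcn5, an endosomal chloride-proton exchanger, was at 0.38 (limma adjusted p = 0.379), or 0.23 without DMSO array 2.

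The MiT factors drive lysosomal genes, and Mitf is known to act on Atp6v0d2 and other osteoclast genes. Of the 4, 0 passed in limma, beside 0.672% of all genes, and the median was 0.17. At an unadjusted p under 0.05, 2 were higher, beside 6.47% of all genes. Mitf was at 116, 122 and 125 on UNC0638 arrays 1, 2 and 3, against 80.7, 95.5 and 87.5 on DMSO arrays 1, 2 and 3. The groups did not overlap, and the log2 difference was 0.40 (SE 0.083, limma adjusted p = 0.0826), but 0.21 (adjusted p = 0.284) with the mean of its probe sets. Tfeb was at 106 ± 7.84 in UNC0638 and 86.4 ± 8.27 in DMSO (0.26, limma adjusted p = 0.287). Tfe3 (-0.056) and Tfec (0.078) had smaller differences.

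Osteoclasts and macrophages are cells known to make Atp6v0d2, so their markers are given beside it. Of 6 osteoclast markers (Acp5, Ctsk, Dcstamp, Ocstamp, Calcr and Oscar) 0 passed in limma, beside 0.672% of all genes. Also 0 lay at an unadjusted p under 0.05, beside 12.7%. Their summed intensity was 260 to 281 on UNC0638 arrays and 236 to 263 on DMSO arrays. None was at 0, but 3 of the 6 lay below the array median on every array and 1 above it on every array. In the wider list of 12 osteoclast and fusion genes 0 passed in limma, and the median was 0.083. At an unadjusted p under 0.05, 0 were higher and 1 lower, beside 6.47% and 6.21% of all genes. The largest differences there were those of Car2, a carbonic anhydrase, at 151 ± 35.2 in UNC0638 and 220 ± 15.7 in DMSO (-0.51, limma adjusted p = 0.179), and of Ctsk, the bone collagen protease cathepsin K, at 64.5 ± 11.6 in UNC0638 and 46.2 ± 17.7 in DMSO (0.41, limma adjusted p = 0.493). The value of Ctsk was 0.15 without DMSO array 2 and 0.23 with a pseudocount of 64.

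Of 10 macrophage markers 1 rose and 0 fell in limma, beside 0.371% and 0.301% of all genes. At an unadjusted p under 0.05 there were 5 higher and 2 lower, beside 6.47% and 6.21%. The lists were written with earlier results known, so nothing is read from such shares. The one that rose was Gpnmb, a lysosomal glycoprotein gene, at 2266 ± 95.1 in UNC0638 and 1426 ± 213 in DMSO (0.67, limma adjusted p = 0.0467), a call that was lost under 10 of 14 alternatives, among them the omission of each of the 6 arrays (adjusted p 0.054 without DMSO array 3 to 0.147 without UNC0638 array 2). The markers did not move as one, since the F4/80 gene Adgre1 was at 0.63 (limma adjusted p = 0.155) and the scavenger receptor gene Msr1 at -0.45 (limma adjusted p = 0.0596). Their summed intensity was 9244 to 9753 on UNC0638 arrays and 6295 to 7914 on DMSO arrays, without overlap. Cd68 and Gpnmb made up most of that sum, at means of 3438 and 2266 in UNC0638. Of the 10, 9 lay above the array median on every array. Of 7 neutrophil markers 2 rose in limma, beside 0.371% of all genes. These were the chemokine receptor gene Cxcr2 (1.23, adjusted p = 0.00684) and the lactoferrin gene Ltf (0.77, adjusted p = 0.0437). The sum of the 7 was 12572 to 14625 on UNC0638 arrays and 11176 to 11723 on DMSO arrays. S100a8, S100a9 and Mmp8 made up most of that sum, at means of 3061, 4057 and 5150 in UNC0638, against 126 for Ltf. The limma adjusted p of S100a8, S100a9 and Mmp8 were 0.952, 0.33 and 0.41. The call of Cxcr2 was lost without UNC0638 array 1 (adjusted p = 0.0534), 1 of 14 alternatives. That of Ltf was lost in 8 of 14, without each array but DMSO array 2 (0.0252), with 0.149 at the most without UNC0638 array 2, and with centring (0.0524), a pseudocount of 64 (0.0921) and the replicate block (0.0754). Of 3 mast cell and basophil markers 0 passed, beside 0.672% of all genes, and 2 were higher at an unadjusted p under 0.05, beside 6.47%. Their sum was 7297 to 7709 on UNC0638 arrays and 5870 to 6624 on DMSO arrays. The part of these cell types in the Atp6v0d2 difference was not tested. Sums overlapped between the groups for 2 lymphoid markers (60.2 to 80.9 in UNC0638 and 61.5 to 65.5 in DMSO), 4 stromal markers (289 to 323 in UNC0638 and 256 to 306 in DMSO), 4 markers of intercalated epithelium (144 to 168 in UNC0638 and 148 to 171 in DMSO) and the erythroid factor Klf1 (30.8 to 34.7 in UNC0638 and 33.7 to 38.6 in DMSO).

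**Figure D4:**
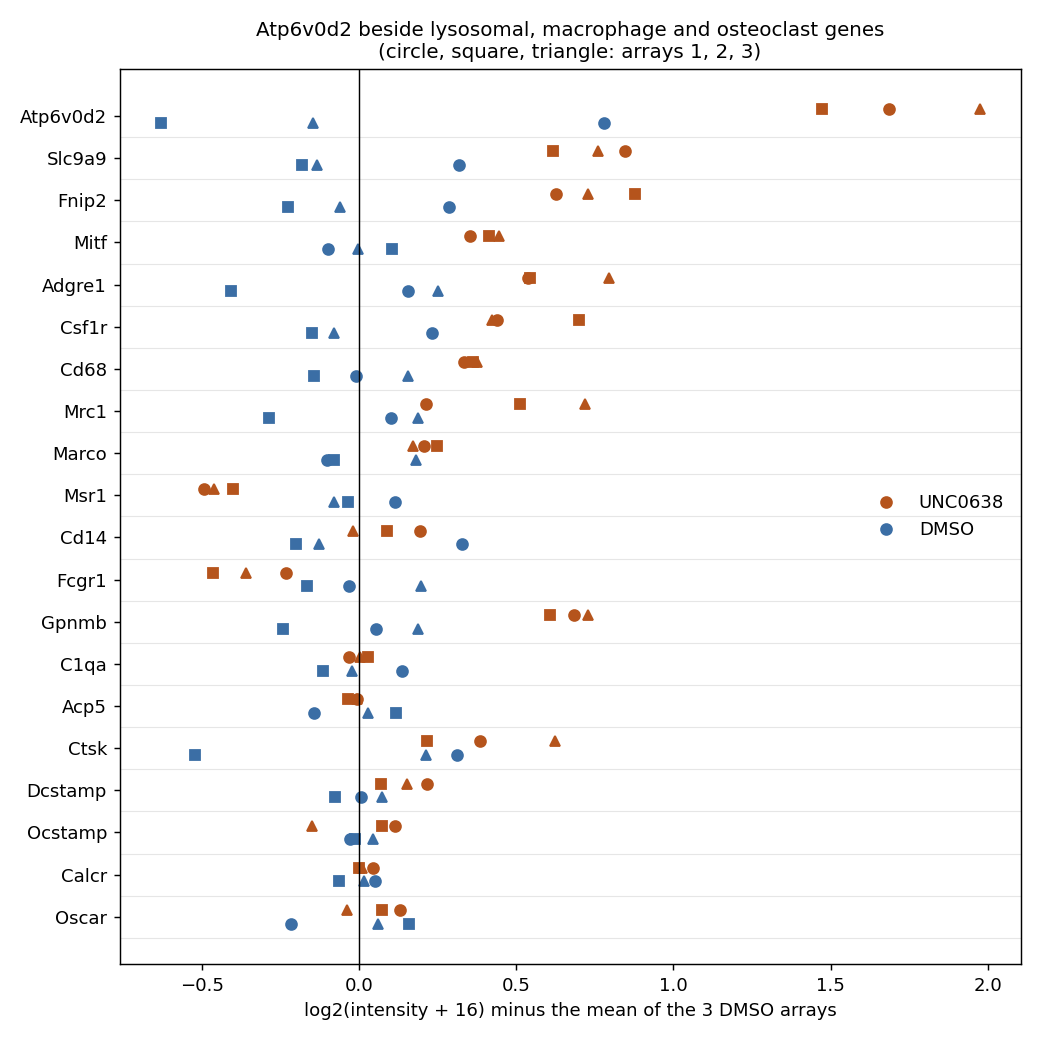
Level of Atp6v0d2, Slc9a9, Fnip2, Mitf, 10 macrophage markers and 6 osteoclast markers on each array, as log2(intensity + 16) minus the mean of the DMSO arrays, with UNC0638 above DMSO in each row. Atp6v0d2 is spread over the DMSO arrays, with array 1 highest and array 2 lowest. Of the 10 macrophage markers, 5 (Adgre1, Csf1r, Cd68, Mrc1 and Gpnmb) lie higher on all UNC0638 arrays, beside 9.59% of all genes. Lower on all UNC0638 arrays lie 2 (Msr1 and Fcgr1), beside 7.40% of all genes. The groups overlap in all 6 osteoclast markers.

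The genes whose log2 values followed those of Atp6v0d2 most closely over the 6 arrays were Wfdc18 (Pearson r = 0.99), Lrp12 (0.989), Sult1c2 (0.988), Gcnt1 (0.988) and Ttll6 (0.987), and those that ran most opposite were Rundc3b (-0.993), Eftud2 (-0.991) and Slc16a1 (-0.986). These r are a description, as the difference between the groups enters them, and 94 genes reached 0.95 or more. Sult1c2, Ttll6 and Rundc3b were dim, below the array median on every array, at 22.0 to 50.1. Among the other 8 V-ATPase genes Atp6v1a came nearest (0.97), followed by Atp6v0a1 (0.868) and Atp6v1c1 (0.797), while Atp6v0a2 ran opposite (-0.788). After the group means were taken out, r with Atp6v0d2 was 0.849 for Atp6v1a and -0.803 for Atp6v1b2. Atp6v1b2, the gene with the next largest difference among the 9, thus had a negative r with Atp6v0d2 within the groups. These r rest on 6 deviations, of which the largest for Atp6v0d2 were 0.78 on DMSO array 1 and -0.63 on DMSO array 2. They are a description too and were not tested. Over all genes the closest in that measure were Kansl1l (0.997), Stxbp3 (0.996), Fignl1 (0.996), Mpc1 (0.995) and Rpn2 (0.994), with 132 genes at 0.95 or more. The log2 differences between the groups of these 5 ran from -0.21 for Fignl1 to 0.199 for Kansl1l, against 1.71 for Atp6v0d2.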

How the data were processed

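The authors deposited already processed, linear intensity values for 34760 probe sets. How it was summarised, background-corrected and scaled is not given in the sources used here, and such steps can shrink differences of dim probe sets. The 21640 probe sets with 1 symbol in the platform annotation gave 19937 genes. Gene positions come from RefSeq's table of GRCm38.p6, matched by symbol. Group was the sole term in limma 3.58.1 (R 4.3.3, lmFit and eBayes) on log2(intensity + 16), with Benjamini-Hochberg adjustment over all genes at a threshold of 0.05. The pseudocount understates changes of dim genes. The procedure was tested on simulated data. Members, lists, tests and alternatives were chosen with earlier results of these data known.

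The genes named are all subunits measured, in each further list those past the threshold or else the 2 with the largest absolute difference, and those nearest to Atp6v0d2 in r, without unnamed gene models. Il22ra2, Clec4b2, Tfe3, Tfec, the marker genes, Flcn, Slc38a9, Lamtor1 and Tmem175 were named after their values were seen. Alternatives were quantile normalization, centring on the median, leaving out the dimmest 40% of genes, pseudocounts of 1 and 64, averaging probe sets, a replicate block, a trended robust prior and each array left out. Atp6v0c was not analysed here. Figures were drawn with matplotlib 3.10.9 (Python 3.11.15).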

Additional observations from a re-analysis of the deposited data

How the results depend on the processing

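Over all genes, 134 passed, against 49 with a pseudocount of 64 and 73 with the replicate number as a block, and between 10 (without UNC0638 array 1) and 69 (without DMSO array 3) with 1 array left out. Centring on the array median left 103, with rises making up 46.6% of them against 55.2%. The count of V-ATPase members past the threshold, chosen after seeing the data, was 0, and 1 (Atp6v0d2) with the dimmest 40% of genes left out, with a pseudocount of 1, with the trended robust prior and without DMSO array 1, so that leaving out 1 array gave 0 to 1. Nothing is read from this count, since the members were chosen with this contrast known. Atp6v0d2 had a log2 difference of 1.48 to 1.80 under the other settings and 1.40 to 2.10 with 1 array left out. The count of members with UNC0638 arrays all above DMSO arrays was 5, beside 9.59% of all genes. It was 6 under quantile normalization, 4 under centring and 5 with the mean of probe sets. The share of all genes was not computed under these settings, and nothing is read from this count either. Of the 15 other subunit genes 0 passed under all 14 alternatives. Signs turned, always at a limma adjusted p above 0.9, for Atp6v1b1 (without UNC0638 3 and DMSO 2), Atp6v1f (0.0097 with quantile normalization, and without UNC0638 2, UNC0638 3 and DMSO 2), Atp6v1g1 and Atp6v1g2 (without UNC0638 2) and Atp6v0a4 (-0.0025 with quantile normalization, -0.0023 with centring, and without UNC0638 3 and DMSO 1). With 1 array left out these ran from -0.18 to 0.0048 for Atp6v1b1, -0.12 to 0.048 for Atp6v1f (which was at -0.22 with the mean of probe sets), -0.17 to 0.038 for Atp6v1g1, -0.068 to 0.14 for Atp6v1g2 and -0.021 to 0.081 for Atp6v0a4. The cause was not tested. Deviations of same-numbered arrays from their group means correlated at -0.066, 0.11 and 0.017, and 2 of 6 arrays correlated best with their own number. These values cannot decide whether same-numbered arrays were handled together, and the labels do not say.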

Other observations

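On the lysosome the V-ATPase is known to work with the Ragulator complex and the Rag GTPases, which bring the kinase mTORC1 to the membrane, and the folliculin complex acts on RagC and RagD. Of 13 measured genes of this machinery 0 passed in limma, beside 0.672% of all genes. At an unadjusted p under 0.05, 4 were higher and 1 lower, beside 6.47% and 6.21% of all genes. The median log2 difference was 0.13 against 0.012 over all genes. Fnip2, a folliculin partner, was at 251, 301 and 270 on UNC0638 arrays 1, 2 and 3, against 195, 132 and 150 on DMSO arrays 1, 2 and 3 (0.74, SE 0.13, limma adjusted p = 0.0568). The groups did not overlap, and it passed without DMSO array 1 (0.89, limma adjusted p = 0.0268), with quantile normalization (0.0458), with the dimmest 40% of genes left out (0.0287), with a pseudocount of 1 (0.0499) and with the trended robust prior (0.0364). Fnip1, the other partner, was at 767 ± 79.7 in UNC0638 and 526 ± 75.8 in DMSO (0.53, limma adjusted p = 0.107). Folliculin itself, Flcn, was at 152 ± 17.1 in UNC0638 and 116 ± 3.14 in DMSO (0.34, limma adjusted p = 0.162), and Slc38a9, an amino acid transporter that reports to the Rags, was at 302 ± 43.8 in UNC0638 and 209 ± 41.5 in DMSO (0.51, limma adjusted p = 0.205). In the other direction lay the Ragulator anchor Lamtor1 at -0.27 (limma adjusted p = 0.353).

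Tmem175, a lysosomal ion channel gene, had 135, 97.2 and 139.8 on UNC0638 arrays 1, 2 and 3, against 318, 106 and 109 on DMSO arrays 1, 2 and 3. Its DMSO array 1 stood apart from the other 5 arrays. That array was the highest of its group for Atp6v0d2, Slc9a9 and Fnip2, and the lowest for Atp6v1b2 and Ncoa7. How often it was the highest over all genes was not computed, and a link between these genes was not tested.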
